A study of Mus musculus with 2 samples.

Results

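The copied let-7a, let-7c and let-7f genes are the let-7 genes of the mouse whose symbol ends in a copy number: Mirlet7a-1, Mirlet7a-2, Mirlet7c-1, Mirlet7c-2, Mirlet7f-1 and Mirlet7f-2. The rule that chose them reads the symbol alone and no measured value, and all 6 were found among the 2202 miRNA genes of the count tables. Small RNA of under 30 nt from whole adrenal glands was sequenced in 2 male B6CASTF1/J mice aged 2 months, which are first-generation hybrids of a laboratory strain and a strain of wild origin. The animals form 1 group with no treatment and no second tissue, and the labels name them as separate animals, 3 (replicate 1) and 4 (replicate 2). The questions are thus how much of each copied gene was counted in the gland, how the copies compared with each other and with their genomic neighbours, and how far the animals differed.

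MicroRNAs of the let-7 family are cut by Drosha and Dicer from hairpin precursors, and the product of the 5′ arm (5p) is the usual guide strand. Its seed, bases 2 to 8, pairs with target messages such as those of Lin28, Hmga2 and Ras genes and lowers their expression. The RNA-binding protein LIN28 blocks let-7 maturation in early embryos, and the mature family is abundant in adult tissues, where it restrains growth and keeps cells differentiated. Several loci encode the same let-7 product.

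The mature products are shown first because the copies of a pair encode the same 5p product (RefSeq, GRCm38.p6). The capitals mark the seed, which was the same in the 3 products.
let-7a-5p: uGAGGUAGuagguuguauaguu
let-7c-5p: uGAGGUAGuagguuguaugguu
let-7f-5p: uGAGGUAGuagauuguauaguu

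Relative to let-7a-5p, with positions counted from 1 at the 5′ end, let-7c-5p carries the single difference A19G and let-7f-5p the single difference G12A, both outside the seed. The 6 let-7 genes with single-locus products, Mirlet7b, Mirlet7d, Mirlet7e, Mirlet7g, Mirlet7i and Mir98, share this seed and differ from let-7a-5p at 1 to 4 positions. Of 1619 distinct mature products that RefSeq assigns to genes of the count table, 50 (3.09%) were assigned to more than 1 gene. This is a lower limit on sharing between loci, since RefSeq lists let-7a-5p under Mirlet7a-1 but not under Mirlet7a-2. Only 968 of the 2202 genes had a RefSeq hairpin.

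The products of the 3′ arm (3p) separate most of the copies, with the seed again in capitals.
let-7a-1-3p: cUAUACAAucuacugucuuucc
let-7a-2-3p: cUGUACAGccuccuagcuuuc
let-7c-1-3p: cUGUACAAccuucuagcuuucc
let-7c-2-3p: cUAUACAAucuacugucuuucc
let-7f-1-3p: cUAUACAAucuauugccuuccc
let-7f-2-3p: cUAUACAGucuacugucuuuc

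Mirlet7a-1 and Mirlet7c-2, which are not sister copies, encode the same 3p product. For these genes both annotated products therefore occur at 2 loci. The other 4 members each have a 3p product found in no annotated miRNA gene at another place. Besides the common 5p seed, the 3p seed UAUACAA was shared by let-7a-1-3p, let-7c-2-3p and let-7f-1-3p, and also by the 3p products of Mirlet7b and Mir98.

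The hairpins show how far the identity of sister copies reaches. Capitals mark the longest run that a hairpin shares with its sister copy.
Mirlet7a-1 (chr13:48538179-48538272, minus strand): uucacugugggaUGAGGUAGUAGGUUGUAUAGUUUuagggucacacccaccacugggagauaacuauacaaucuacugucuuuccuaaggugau
Mirlet7a-2 (chr9:41536716-41536811, plus strand): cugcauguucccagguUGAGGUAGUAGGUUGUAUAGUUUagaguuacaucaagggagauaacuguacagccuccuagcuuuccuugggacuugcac
Mirlet7c-1 (chr16:77599657-77599750, plus strand): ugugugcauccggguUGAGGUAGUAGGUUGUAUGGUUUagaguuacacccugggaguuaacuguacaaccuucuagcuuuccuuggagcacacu
Mirlet7c-2 (chr15:85706603-85706697, plus strand): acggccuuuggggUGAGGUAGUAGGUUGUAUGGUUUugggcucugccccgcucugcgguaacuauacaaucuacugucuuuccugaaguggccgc
Mirlet7f-1 (chr13:48537829-48537917, minus strand): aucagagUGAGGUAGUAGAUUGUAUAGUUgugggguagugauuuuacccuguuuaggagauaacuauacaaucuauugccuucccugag
Mirlet7f-2 (chrX:151912346-151912428, plus strand): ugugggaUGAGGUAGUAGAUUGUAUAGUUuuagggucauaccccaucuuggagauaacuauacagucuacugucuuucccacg

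The shared run was the 22-base mature product and little else. It was 23 bases long in the let-7a and let-7c pairs and 22 bases in the let-7f pair, and in every pair it began at the first base of the product. Counted from that base, the copies first differed at U24A for Mirlet7a-1 and Mirlet7a-2, at A24U for Mirlet7c-1 and Mirlet7c-2, and at G23U for Mirlet7f-1 and Mirlet7f-2. A read that starts with the 5p product thus had to reach base 24 to match only 1 copy of let-7a or let-7c, and base 23 for let-7f. The longest run shared by any members was 26 bases, around the common 3p product of Mirlet7a-1 and Mirlet7c-2.

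Cut into windows of 22 bases, 66 of the 73 windows of Mirlet7a-1 (90.4%) and 67 of the 74 of Mirlet7c-2 (90.5%) occurred in no other annotated miRNA gene. This share was 97.3% in Mirlet7a-2 and in Mirlet7c-1, 98.5% in Mirlet7f-1 and 98.4% in Mirlet7f-2. An annotation over a gene's own bases, such as Gm24111 on the opposite strand of Mirlet7f-1, was not counted as another gene. Few windows were shared in the members, but these included the mature products. The median was 97.3% over the 6 members, 47.8% over the 140 other miRNA genes with a copy number and 100% over all 2202 miRNA genes. None of the 6 members had every window to itself, while 5 of the 140 (3.57%) and 1170 of all 2202 genes (53.1%) did. With 1 mismatch allowed the share was 54.8% in Mirlet7a-1 and 53.2% in Mirlet7f-2, and lay between 75.7% and 89.7% in the other 4 members.

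**Figure D1:**
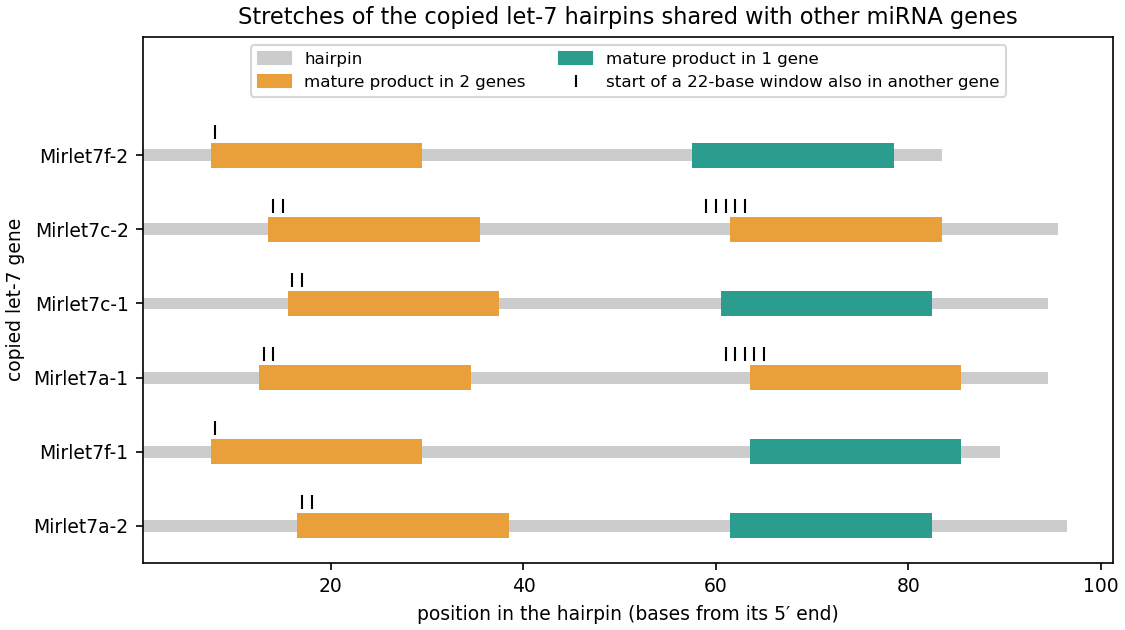
Hairpins of the 6 copied let-7 genes along their length in bases from the 5′ end, with mature products found in 2 miRNA genes or in 1 as coloured boxes and the start of each 22-base window that also occurs in another gene as a tick. Mirlet7c-2 and Mirlet7a-1 have 7 shared windows each, over both arms; the other members have 1 or 2, at the 5p product.

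The members lie in 5 clusters with other miRNA genes (mm10, GENCODE M21). Mirlet7a-1 and Mirlet7f-1 lie 261 bases apart on chromosome 13. Both of them and Mirlet7d overlap exon sequence of 6720427I07Rik, a long non-coding RNA. Mirlet7a-2 lies on chromosome 9 between Mir100 and Mir125b-1, in introns of the non-coding genes 3110039I08Rik and Gm49317. Mirlet7c-1 lies in an intron of Mir99ahg on chromosome 16, 656 bases from Mir99a. Mirlet7c-2 overlaps exon sequence of Lncppara on chromosome 15, 621 bases from Mirlet7b. Mirlet7f-2 lies on the X chromosome in an intron of Huwe1, a ubiquitin ligase gene, 785 bases from Mir98. On the opposite strand of Mirlet7f-1 the annotation places a further miRNA gene, Gm24111, so this member was counted only where strand was used.

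The libraries comprised 17000342 reads in replicate 1 and 10752051 in replicate 2. Own-strand counts at miRNA genes totalled 5752428 in replicate 1 and 3333149 in replicate 2. Markers of the gland's cells were counted at unequal levels. Neuroendocrine markers summed to 72685 CPM (counts per 1000000 counts at miRNA genes) in replicate 1 and 51345 in replicate 2. Of these, Mir375, a miRNA of endocrine cells, had 68780 and 46236 CPM in replicates 1 and 2, while Mir7b had 3666 and 4819 CPM and Mir7-1 had 240 and 290 CPM. Mir7-1 carries a copy number, so reads of any product shared between loci may be missing from its count. Of the markers of steroid-producing tissue, Mir132 had 1416 and 1449 CPM in replicates 1 and 2, Mir212 had 36.7 and 87.6 CPM, and Mir202 only 8.69 and 13.2 CPM. Of the endothelial markers, Mir126a had 69154 and 65133 CPM in replicates 1 and 2, and Mir126b only 0.174 and 2.40 CPM. A count of 0 allowed up to 0.522 CPM in replicate 1 and 0.900 in replicate 2, and every member was far above this. Intervals and limits given here cover counting error only, since no molecular identifiers separate PCR copies from independent molecules. In a whole gland, fewer cells of a type and less RNA per cell cannot be told apart.

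All 6 members were counted in both animals, at levels that spanned 19.2-fold from the highest to the lowest mean. Mirlet7f-2 was the highest, with 4718 CPM in replicate 1 and 5235 in replicate 2 (4977 ± 365, mean ± SD, n = 2). Mirlet7c-2 followed with 2510 CPM in replicate 1 and 1994 in replicate 2 (2252 ± 365). These 2 genes together took 77.2% of the members' counts in replicate 1 and 81.7% in replicate 2. The 5p product of each is also encoded at another locus. Mirlet7c-1 had 926 and 750 CPM in replicates 1 and 2. The CPM of Mirlet7a-1 were 571 in replicate 1 and 375 in replicate 2, the widest spread among the members relative to its level (473 ± 139). The remaining members were the other let-7f copy and the other let-7a copy. Mirlet7f-1 had 336 and 275 CPM in replicates 1 and 2, and Mirlet7a-2 had 296 and 221 CPM. In the order of means, each member lay above the next with no overlap between the animals' values, except for Mirlet7f-1 and Mirlet7a-2. Mirlet7f-1 was the higher of these within each animal, but its lower value lay below the higher value of Mirlet7a-2.

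In the list of all 2202 genes by mean CPM, Mirlet7f-2 ranked 36 and Mirlet7c-2 ranked 46. Mirlet7c-1 was at rank 79, Mirlet7a-1 at 108, Mirlet7f-1 at 127 and Mirlet7a-2 at 136. The members summed to 9358 CPM, or 0.936% of the counts (95% Clopper-Pearson interval 0.928 to 0.944), in replicate 1 and to 8850 CPM, or 0.885% (0.875 to 0.895), in replicate 2. Their median was 655 CPM, beside a median of 86.8 CPM over the 372 miRNA genes with at least 2 CPM in both libraries.

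**Figure D2:**
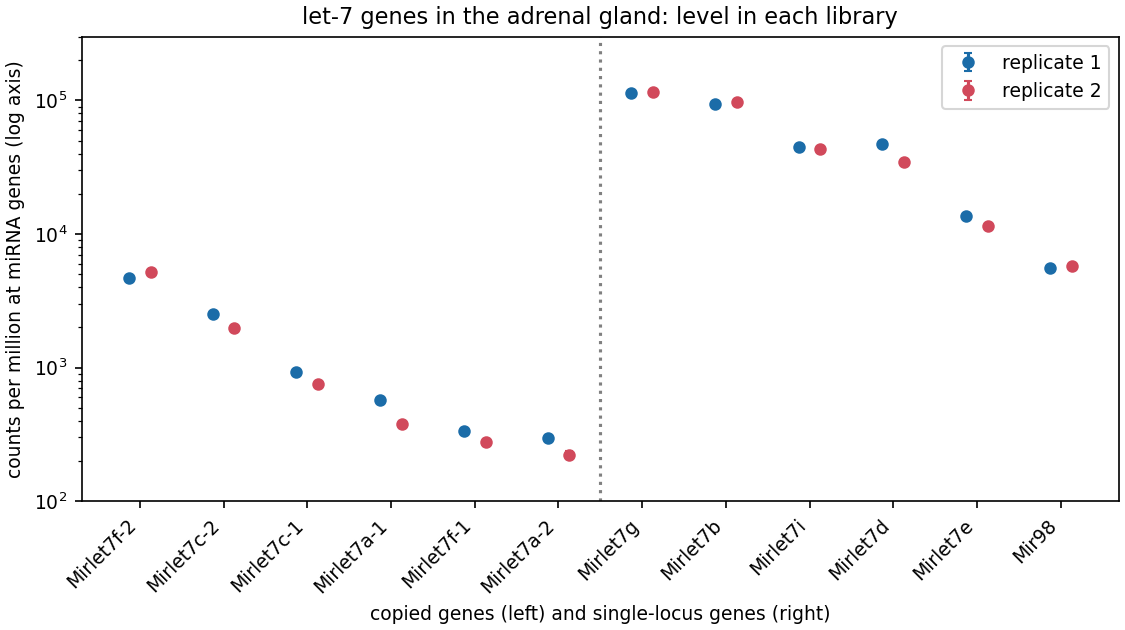
Level of the 12 let-7 genes in each library, in CPM on a log axis; points are libraries and bars, mostly hidden by the points, are 95% Clopper-Pearson intervals. The copied genes (left) lie between 221 and 5235 CPM, and the single-locus genes (right) between 5611 and 116286 CPM.

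The copied genes were counted below the single-locus genes of the same family. The highest value of a member, 5235 CPM for Mirlet7f-2 in replicate 2, lay below the lowest value of a single-locus gene, 5611 CPM for Mir98 in replicate 1. The medians were 655 CPM over the 6 members and 42543 CPM over the 6 single-locus genes. The single-locus genes summed to 34.2 times the members' counts in replicate 1 and to 34.9 times in replicate 2. Mirlet7g, the gene with the most counts in the gland, reached 113646 CPM in replicate 1 and 116286 in replicate 2. No test was made of this difference, which sets 6 genes against 6 genes in the same libraries.

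By its name, 1 row of each table that names no gene tallies reads that aligned to several places, and it was far larger than the members' counts. No source used here gives the aligner or how it was set, so the meaning of the row is inferred. It held 4455365 reads in replicate 1, or 39.4% of aligned reads, and 3096387 reads in replicate 2, or 41.2%. The members' summed counts were 53830 in replicate 1, so the row was 82.8 times as large, and 29498 in replicate 2, where it was 105 times as large. The row names no gene, and how many of its reads came from let-7a, let-7c or let-7f was not tested. Arithmetic limits can be given. With none of the reads of that row from the members, they would hold 0.527% of the reads at miRNA genes and in that row together in replicate 1, and 0.459% in replicate 2. With all of the reads of that row from the members, they would hold 44.2% in replicate 1 and 48.6% in replicate 2. Read this way, the measured CPM of a member is the level of reads placed at its locus alone, and not the level of let-7a, let-7c or let-7f in the gland. The tables give 1 count per gene, so 5p, 3p and longer reads of a hairpin could not be separated.

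Of all copy-numbered miRNA genes the 2 highest were the members Mirlet7f-2 and Mirlet7c-2. The 6 members summed to 1.83 times the counts of the 140 other such genes together in replicate 1 and to 1.76 times in replicate 2. Of those 140 genes, 40 (28.6%) reached 2 CPM in both libraries, while all 6 members did. The highest of the 140 were Mir16-1 (1232 CPM in replicate 1 and 641 CPM in replicate 2), Mir92-1 (898 and 949 CPM) and Mir30c-2 (421 and 364 CPM). None of the 140 had a higher mean than Mirlet7f-2 or Mirlet7c-2, and 5 had a higher mean than Mirlet7a-2, the lowest member. The median share of hairpin windows found in no other annotated miRNA gene was 47.8% over the 140 genes and 97.3% over the members. Reads of shared sequence may be missing from the counts of both sets, and to an unequal extent. How far this bears on the sums, ranks and detection compared here was not tested.

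Sister copies, which encode the same 5p product, were counted unequally in each pair, and the copy numbered 1 was the higher only in the let-7a pair. In every pair the higher copy was the one with U at the first base that differs (U24A, A24U and G23U). Whether that base bears on which copy a read was placed at was not tested. Mirlet7a-1 had 3286 counts and Mirlet7a-2 had 1705 in replicate 1, and 1251 and 736 in replicate 2. The log2 ratio of Mirlet7a-1 over Mirlet7a-2 was 0.95 in replicate 1 and 0.76 in replicate 2 (0.86 ± 0.13, mean ± SD, n = 2). Mirlet7a-1 thus gave 65.8% of the pair's counts in replicate 1 (interval 64.5 to 67.2) and 63.0% in replicate 2 (60.8 to 65.1). These intervals overlapped.

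Mirlet7c-1 had 5324 counts and Mirlet7c-2 had 14438 in replicate 1, and 2499 and 6646 in replicate 2. This was the most stable of the 3 ratios, with a log2 ratio of Mirlet7c-1 over Mirlet7c-2 of -1.44 in replicate 1 and -1.41 in replicate 2 (-1.43 ± 0.02, n = 2). Mirlet7c-1 gave 26.9% of the pair's counts in replicate 1 and 27.3% in replicate 2, with overlapping intervals. Mirlet7c-2, the higher copy, shares both of its annotated products with other genes, while the 3p product of Mirlet7c-1 is its own.

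The let-7f pair was the most uneven. Mirlet7f-1 had 1935 counts and Mirlet7f-2 had 27142 in replicate 1, and 917 and 17449 in replicate 2. Mirlet7f-2 exceeded Mirlet7f-1 14.0-fold in replicate 1 and 19.0-fold in replicate 2, a log2 ratio of Mirlet7f-1 over Mirlet7f-2 of -4.03 ± 0.31 (n = 2). Mirlet7f-1 gave 6.65% of the pair's counts in replicate 1 (6.37 to 6.95) and 4.99% in replicate 2 (4.68 to 5.32), and here the intervals did not overlap. In all 3 pairs the ratio lay further from 0 than its spread between the animals. These ratios are taken within a library, so no scaling between libraries enters them.

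**Figure D3:**
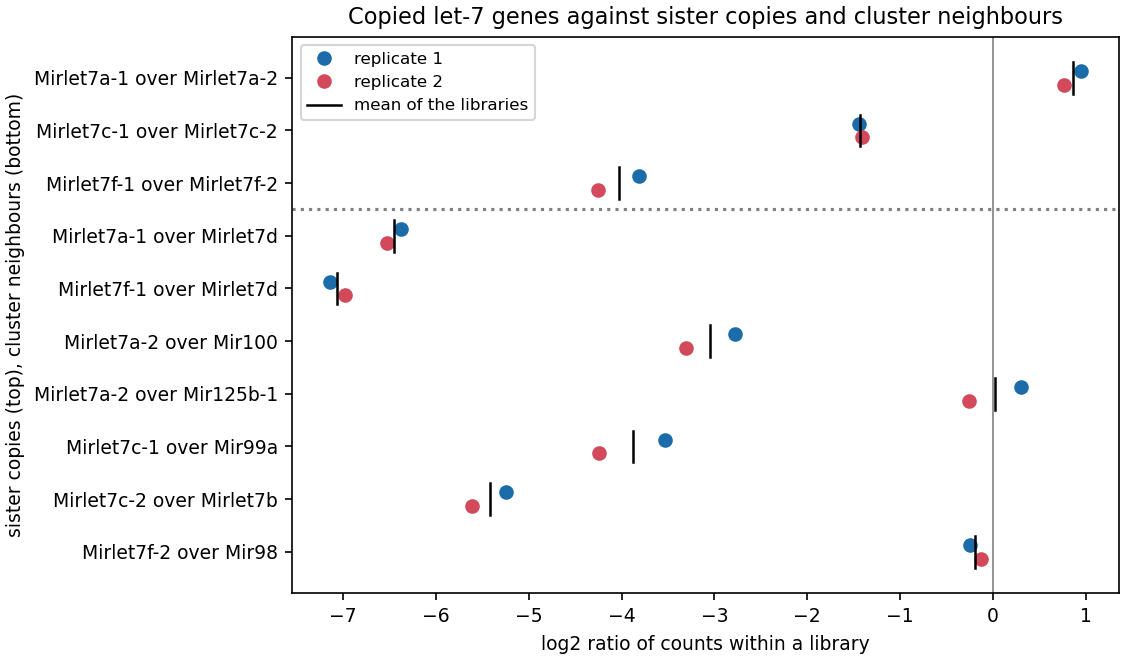
Log2 ratios of counts within each library for the 3 pairs of sister copies (top) and for each copied let-7 gene over its cluster neighbours (bottom); points are libraries and black bars their mean. Mirlet7f-1 over Mirlet7f-2 has the sister ratio furthest from 0 (mean -4.03), and Mirlet7f-2 and Mirlet7a-2 are level with a neighbour to within 0.30.

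Against their cluster neighbours, with which they can share a primary transcript, the members ranged from level to 141-fold lower. Reads of a member's 5p product match 2 loci and may be missing from its count. The products of Mirlet7d, Mirlet7b and Mir98 are found in 1 annotated gene only. Ratios to these neighbours may thus set part of a member's reads against all of a neighbour's. On chromosome 13 Mirlet7a-1 lay below Mirlet7d by a log2 ratio of -6.45 ± 0.11 (mean ± SD, n = 2), and Mirlet7f-1 lay below it by -7.06 ± 0.11. Mirlet7d, whose products are encoded at no other annotated gene, had 272284 counts in replicate 1 and 115956 in replicate 2. Within this cluster the neighbours Mirlet7a-1 and Mirlet7f-1 were much closer to each other, 1.70-fold apart in replicate 1 and 1.36-fold in replicate 2, with Mirlet7a-1 the higher.

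On the X chromosome Mirlet7f-2 was nearly level with Mir98, with 27142 and 32279 counts in replicate 1 and 17449 and 19089 in replicate 2. Their order turned per base of hairpin, with a mean log2 ratio of Mirlet7f-2 over Mir98 of 0.19, against -0.19 per gene. Mirlet7f-1 and Mirlet7f-2, which encode the same 5p product, thus stood at opposite ends of the comparison with single-locus neighbours. On chromosome 15 Mirlet7c-2 lay below Mirlet7b by 37.8-fold in replicate 1 and 48.8-fold in replicate 2. On chromosome 16 Mirlet7c-1 lay below Mir99a, a member of the miR-99 and miR-100 family with another seed, by 11.6-fold in replicate 1 and 18.9-fold in replicate 2.

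On chromosome 9 Mirlet7a-2 lay below Mir100 by 6.89-fold in replicate 1 and 9.94-fold in replicate 2. Its order against Mir125b-1, itself a gene with a copy number, turned between the animals. Mirlet7a-2 had 1705 counts against 1381 of Mir125b-1 in replicate 1, and 736 against 880 in replicate 2, a log2 ratio of 0.02 ± 0.40. The members' ratios to single-locus let-7 neighbours varied less between the animals, with SD of 0.09 to 0.26, than those to Mir100, Mir125b-1 and Mir99a, with SD of 0.37 to 0.50; with 2 animals this was not tested.

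Between the animals, most copied let-7 genes were higher in replicate 1. A two-sided exact binomial test per gene compared these libraries, taking the TMM effective library sizes as the expected split, with Benjamini-Hochberg adjustment over the 389 miRNA genes whose mean count was at least 10. All 6 members passed this filter and all 6 were called higher in replicate 1. The test called 59.6% of the 389 genes in either direction, 30.8% higher and 28.8% lower in replicate 1. It takes counting error alone into account and compares these 2 libraries, not a condition. The exact test of edgeR, with the common dispersion of both libraries, called 0 of the 6 members, 0 of them at an unadjusted p under 0.05, and 4 of the 389 genes. After TMM scaling Mirlet7a-1 had a log2 ratio of replicate 1 over replicate 2 of 0.80 with a counting error of 0.05 (SE), and an adjusted p of the exact test of 4.23e-67. Mirlet7a-2 had 0.62, Mirlet7c-2 0.53, Mirlet7c-1 0.50 and Mirlet7f-1 0.49.

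Mirlet7f-2 had the ratio nearest to 0 among the members. Its log2 ratio was 0.05 with an SE of 0.01 (adjusted p of the exact test 0.00104), close to the median of 0.01 over all genes tested. By total counts it was called lower in replicate 1, with a log2 ratio of -0.15, while the other 5 were still called higher with ratios of 0.29 to 0.61. TMM scaling moved all log2 ratios up by 0.20 against total counts, where the median over all genes tested was -0.19. The share of tested genes called by total counts was 21.9% for those higher in replicate 1 and 43.7% for those lower in it. The members' median was 0.52 under TMM and 0.32 by total counts. For the single-locus let-7 genes, it was 0.20 under TMM and 0.00 by total counts. All 6 single-locus genes were called higher under TMM, and by total counts 3 were called higher and 3 (Mirlet7b, Mirlet7g and Mir98) lower.

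Marker lists of other cells moved with the same contrast in both directions. The 3 red blood cell markers analysed here, Mir451a, Mir144 and Mir486, summed to 22813 CPM in replicate 1 and 901 in replicate 2, and none was at 0. With these genes left out of the total counts, 5 members were called higher and 1, Mirlet7f-2, lower (log2 ratio -0.12), as with them. This changes only the totals that scale the libraries, so it cannot show whether reads of the members came from red blood cells. The muscle list summed to 710 CPM in replicate 1 and 453 in replicate 2, with Mir1a-1 and Mir133a-2 at 0 in both. Mir1a-1, Mir1a-2, Mir133a-1 and Mir133a-2 carry a copy number. Reads of any product shared between loci may be missing from their counts and from this sum, so the values at 0 do not show absence. Its members went opposite ways: Mir499 had 423 and 23.1 CPM in replicates 1 and 2, Mir208b had 204 and 40.8 CPM, and Mir206 had 81.7 and 389 CPM. The liver marker had 690 and 1331 CPM in replicates 1 and 2, and the 4 kidney markers summed to 92.5 and 137 CPM. The kidney list also includes genes with a copy number, to which the same limit applies. The neuroendocrine sum, given above, was higher in replicate 1 through Mir375, while Mir7b and Mir7-1 had fewer CPM there than in replicate 2. The part of red blood cells and of muscle, liver, kidney and neuroendocrine cells in the members' differences was not tested.

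The differences between the animals can be set beside those of the cluster neighbours. On chromosome 13 Mirlet7a-1 (0.80), Mirlet7f-1 (0.49) and Mirlet7d (0.64) were all called higher in replicate 1 under TMM. On the X chromosome Mirlet7f-2 (0.05) and Mir98 (0.17) had small ratios. On chromosome 15 Mirlet7c-2 had 0.53 and Mirlet7b 0.16. On chromosome 16 Mirlet7c-1, at 0.50, was called higher while Mir99a, at -0.20, was called lower. On chromosome 9 Mirlet7a-2 had 0.62, Mir100 had 0.09 and Mir125b-1 had 0.06, of which the last was not called (adjusted p of the exact test 0.443). Mirlet7c-1 and Mirlet7a-2 thus had larger ratios than each of their 3 neighbours with another seed.

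**Figure D4:**
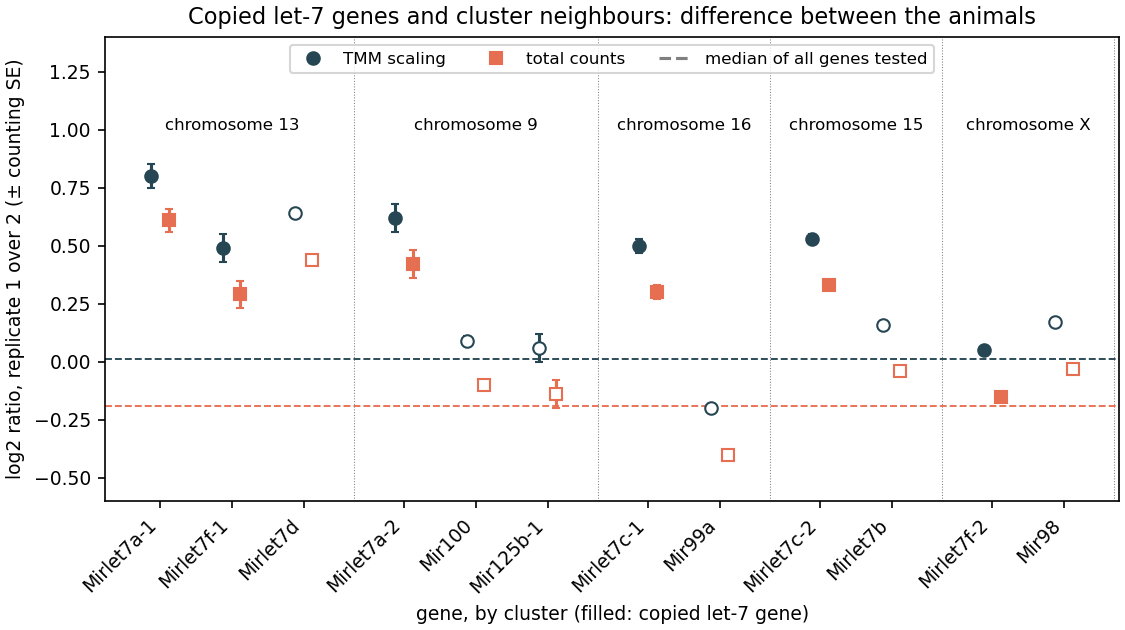
Log2 ratio of replicate 1 over replicate 2 for the copied let-7 genes (filled) and their cluster neighbours (open), by chromosome, after TMM scaling (circles) and by total counts (squares); bars are the SE of counting, and dashed lines mark the median of the 389 genes tested under each scaling. Mirlet7f-2 lies at 0.05 under TMM, close to that median, and the other 5 copied genes lie between 0.49 and 0.80.

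The genes outside the let-7 family whose difference between the animals came nearest to the members' median of 0.52 were Mir296 (0.52), Mir760 (0.51) and Mir770 (0.53), among genes with 100 or more counts in mean. Likeness here is the log2 ratio of 2 libraries after TMM scaling.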

How the data were processed

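Per the labels, total RNA of whole adrenal glands was sequenced as small RNA of under 30 nt, 1 library per animal. The authors deposited raw counts at miRNA genes of GENCODE M21 on mm10, per the files that describe each library. How reads were trimmed and aligned is not given in the sources used here. By their values the 3 columns hold unstranded, own-strand and opposite-strand counts, of which the own-strand counts were used. The 4 rows that name no gene (66.2% of replicate 1 and 69.0% of replicate 2) were kept out of totals and tests.

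CPM were computed over the summed counts of all miRNA genes. Ratios within a library had 0.5 counts added. With 1 group no quasi-likelihood test was possible, so the libraries were compared by an exact binomial test at a threshold of 0.05. Counts and the CPM of members are uncertain wherever sequence is shared between loci. Hairpin windows were set against the 2202 hairpins annotated by GENCODE M21, not against a genome. RefSeq hairpins matched all 6 members and were identical to those of GENCODE. The let-7a-5p sequence was placed in the Mirlet7a-2 hairpin by exact match. Of 8 listed single-locus let-7 genes, 2 are not analysed here.

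Named genes were the members, the single-locus let-7 genes, the listed cluster neighbours, the 3 other copied genes with the highest CPM, and the 3 genes nearest to the members' median ratio. Members and lists were chosen with earlier results of these data known. The exact test was checked on data simulated with counting error alone, a check that does not cover variation between animals. Software comprised R 4.3.3 with edgeR 4.0.16 and DESeq2 1.42.0, and Python 3.11.15 with pandas 2.3.3, SciPy 1.17.1, NumPy 2.4.6 and matplotlib 3.10.9.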

Additional observations from a re-analysis of the deposited data

How the results depend on the processing

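The members' summed level of 9104 CPM depended on the denominator: it was 4931 CPM with reads that aligned to several places added, 4346 CPM over all aligned reads and 10463 CPM from unstranded counts, and lay between 8850 and 9358 CPM with either library left out. In unstranded counts Mirlet7f-1 was listed at 0, since Gm24111 covers its opposite strand, and its ratios could not be formed. For ratios to sister copies and neighbours, the 28 alternatives that kept both libraries and counts per gene (unstranded counts, other pseudocounts) moved none beyond its SD between the animals. These alternatives could hardly move a ratio. The unstranded counts used were equal or nearly equal to own-strand counts, and the pseudocounts were small beside member counts of at least 736. Counts per base of hairpin, an alternative chosen after seeing the data, moved no sister ratio beyond its SD but 4 of 7 neighbour ratios: Mirlet7f-2 over Mir98 reversed to 0.19, and Mirlet7a-1 over Mirlet7d was -6.32, Mirlet7f-1 over Mirlet7d -6.85 and Mirlet7c-1 over Mir99a -4.42. With 2 libraries, leaving out either cannot move a mean by its SD, and these values are the libraries' own, given above. With windows of 18 bases, the share found in no other gene was 72.7% to 88.9% in the members, and with 24 bases 95.8% to 100%. The count of members called higher in replicate 1 was 6 under DESeq2 size factors and 5 by total counts, and 1 member, Mirlet7f-2, was then called lower (-0.15); so it was without the red blood cell genes, an alternative chosen after seeing the data (1 lower, at -0.12). From unstranded counts 4 of the 5 members tested were called, all higher; Mirlet7f-2 was not (0.02, adjusted p of the exact test 0.319). With the common dispersion that edgeR estimated from the same libraries, its exact test called 0 members, with 0 at an unadjusted p under 0.05, and 4 of 389 genes; that test sets 1 library against 1. Leaving out a library was not possible for this comparison. No paired analysis was possible because the libraries form 1 group. Depth did not limit the detection of any member, as the lowest count of a member was 736.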
